A study of Mus musculus with 20 samples.

Results

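The Ifi200 window on chromosome 1 of the mouse (mm39, 173 to 174 Mb) held 18 of the 11222 enhancers whose transcription was counted in bone marrow-derived macrophages. An enhancer belonged to the window if its midpoint lay between those positions, and no other criterion was used. The window itself was chosen by measured values, since it was put forward with earlier results of the same libraries in view, among them the tags of an enhancer in its upper part after interferon gamma (IFN-γ) at 3 h and in unstimulated cells. Comparisons with unstimulated cells are therefore given as descriptions. For them the model's counts of calls are printed, but no enhancer's p-value, and nothing is read from those counts. Tests are given between stimuli and between times. The comparisons between stimuli were known beforehand as well, so that they describe the window and are not an independent check of its choice. The window is named after the Ifi200 gene cluster by its definition. The annotation at hand is of an older build, GRCm38, so neither that name nor the gene at any single enhancer was checked, and the files hold no genes from which the cell type could be checked by its markers.

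All cells were macrophages grown with M-CSF from the marrow of C57BL/6 mice, whose age is not given. They received IFN-γ plus the TLR9 agonist CpG, IFN-γ alone, or CpG alone, each for 3, 9 or 15 h, or neither stimulus (unstimulated, 0 h). Each of these 10 groups had 2 libraries, which the series calls biological replicates. M-CSF came from medium conditioned by L929 cells, and the protocols add a polarization with IL-4 and IL-10 without saying whether the counted cells had passed through it. No untreated cells of 3, 9 or 15 h were among the samples, so that a comparison with unstimulated cells also contains time in culture.

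The Ifi200 genes encode the mouse PYHIN proteins, which join a pyrin domain, a HIN domain or both. HIN domains bind double-stranded DNA, and the pyrin domain passes the signal on. AIM2, the best known member, binds DNA in the cytosol and assembles an inflammasome that activates caspase-1; p204, the product of Ifi204, has been linked to interferon induction by DNA. IFN-γ acts through its receptor and JAK kinases and induces the transcription factor IRF1, whereas CpG DNA acts through TLR9 and MyD88 on NF-κB. IRF factors bind the interferon-stimulated response element (ISRE).

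The protocols name CpG ODN-1826, a synthetic DNA of 20 bases, for a stimulation of another length than the times on these samples; it is shown because it is the only named form of this stimulus, with its 2 CG dinucleotides in capitals.
CpG ODN-1826: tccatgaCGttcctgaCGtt

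No mm39 sequence was at hand for the enhancers themselves. Promoter sequences of the family were, from RefSeq on GRCm38.p6, and they are shown because most of the genes searched held the letters of an interferon response element. RefSeq lists 13 genes of the family on chromosome 1, in the order Aim2, Ifi206, Ifi214, Ifi213, Ifi209, Ifi208, Ifi207, Ifi204, Mndal, Ifi211, Ifi203, Ifi202b and Ifi205. A promoter was given for 12 of them, all except Ifi204. The ISRE core was read as GAAA, any 2 bases and GAAA again. It was searched on both strands over the 250 bases before and the 50 after each annotated gene start. The core was found in 9 of the 12 genes (75%). Counted by promoter window, it was found in 10 of the 14 windows of these genes, against 3.44% of all 32851 windows. Aim2, Ifi209 and Ifi202b had no match. The same 10 letters, GAAATCGAAA, stood on the gene's strand in 7 genes, and GAAATTGAAA in 2. The genes of the family are copies of each other, so that these matches are not independent, and a match in this window is a description and not a binding site. The 100 bases before the gene start are given below for the 8 genes with a match on the gene's strand there and for Aim2 (5′ to 3′ on the gene's strand, the ISRE core in capitals, coordinates on GRCm38.p6, which cannot be set against the mm39 positions of the enhancers).
Ifi206, chr1:173491319-173491418, minus strand: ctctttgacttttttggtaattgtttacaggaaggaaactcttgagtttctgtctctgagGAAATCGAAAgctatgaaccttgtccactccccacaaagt
Ifi214, chr1:173535958-173536057, minus strand: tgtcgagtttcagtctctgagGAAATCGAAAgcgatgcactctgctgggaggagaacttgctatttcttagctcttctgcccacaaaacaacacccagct
Ifi213, chr1:173599273-173599372, minus strand: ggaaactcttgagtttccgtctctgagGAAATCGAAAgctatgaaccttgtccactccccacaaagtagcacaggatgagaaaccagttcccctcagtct
Ifi208, chr1:173673565-173673664, plus strand: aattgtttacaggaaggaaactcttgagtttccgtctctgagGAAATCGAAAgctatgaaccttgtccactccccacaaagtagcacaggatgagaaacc
Ifi207, chr1:173741810-173741909, minus strand: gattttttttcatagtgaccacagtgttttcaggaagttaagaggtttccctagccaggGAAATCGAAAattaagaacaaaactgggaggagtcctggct
Mndal, chr1:173880188-173880287, minus strand: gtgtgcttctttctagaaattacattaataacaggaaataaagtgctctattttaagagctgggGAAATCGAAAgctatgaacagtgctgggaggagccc
Ifi211, chr1:173913047-173913146, minus strand: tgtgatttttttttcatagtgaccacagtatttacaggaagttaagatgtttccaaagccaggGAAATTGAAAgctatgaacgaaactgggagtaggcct
Ifi203, chr1:173942493-173942592, minus strand: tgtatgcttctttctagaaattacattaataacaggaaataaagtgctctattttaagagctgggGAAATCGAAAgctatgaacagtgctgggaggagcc
Aim2, chr1:173420504-173420603, plus strand: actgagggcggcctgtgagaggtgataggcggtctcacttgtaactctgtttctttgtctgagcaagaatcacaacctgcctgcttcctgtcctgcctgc
In these 8 genes the core began 35 to 79 bases before the gene start. The stretch around it was nearly the same in Ifi213, Ifi206 and Ifi208, and likewise in Mndal and Ifi203.

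**Figure D1:**
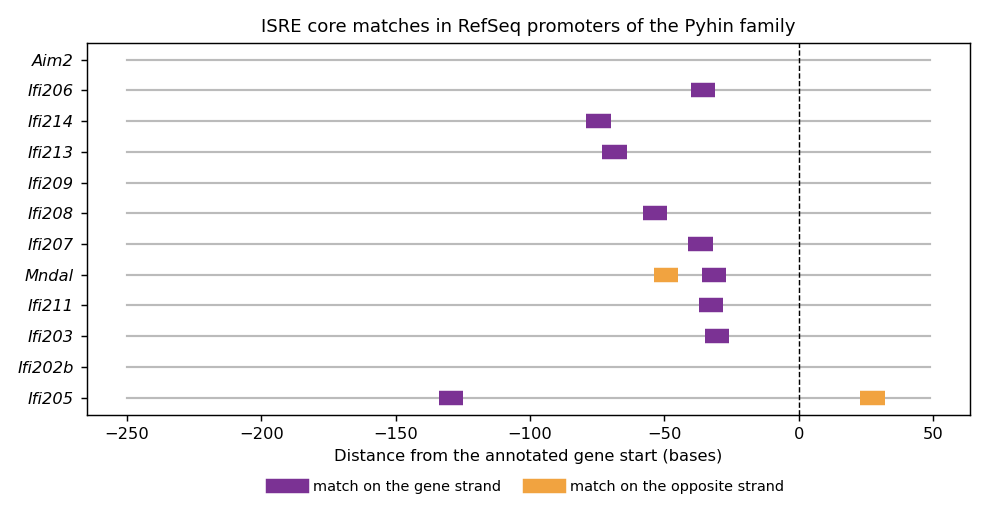
Position of each match of the ISRE core in the RefSeq promoters of 12 family genes, in bases from the annotated gene start (dashed line at 0), with genes in chromosome order from top to bottom; grey lines span the window searched, and the annotated starts of Mndal and of Ifi203 share a line each. In 8 genes a match on the gene's strand (purple) begins 35 to 79 bases before the start, in Ifi205 134 bases before it, and Aim2, Ifi209 and Ifi202b have none.

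The 18 enhancers are numbered here from 1 to 18 by position. They spanned 644 kb between the midpoints of enhancer 1 (chr1:173236661-173236909) and enhancer 18 (chr1:173880610-173881001). Of the 17 gaps between neighbouring midpoints 7 were under 5 kb, and the largest, between enhancers 4 and 5, was 169.8 kb. Close neighbours were enhancers 6 and 7, 8 to 10, 11 and 12, and 15 to 18. Their length was 63 to 577 bases with a median of 300, against 288 over all enhancers. Of 1559 bins of 1 Mb with an enhancer, 131 (8.4%) held 18 or more. The nearest enhancers outside lay 529 kb below the window (chr1:172471224-172471583) and 2640.1 kb above it (chr1:176639887-176640262). They held 14 and 8 tags over all libraries, none in unstimulated cells.

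A tag is 1 capped RNA 5′ end counted by nAnT-iCAGE, a cap analysis of gene expression without amplification, and levels are in RPM, tags scaled to the total of the whole library. Whole libraries held 12776280 to 13855472 tags and differed little in depth, so that tags can be read almost directly between libraries. Enhancers took 0.0991% to 0.220% of a library, most in IFN-γ plus CpG at 3 h replicate 2 and least in IFN-γ at 3 h replicate 2. Overlap of the counted regions with promoters was not checked here. In such bulk samples, fewer cells of a type and less RNA per cell cannot be told apart. The window held 729 tags over the 20 libraries, and intervals and bounds below cover counting error only.

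Transcription across the window was close to nil in unstimulated macrophages and present in every stimulated library. The summed level of the 18 enhancers was highest with IFN-γ plus CpG, lower with IFN-γ and lowest with CpG. Both IFN-γ treatments lay above CpG in every library: the 6 libraries of IFN-γ plus CpG held 39 to 130 tags (median 57), those of IFN-γ 31 to 60 (median 37), those of CpG 4 to 17 (median 13.5), and the unstimulated libraries 2 and 0. Of the 18 enhancers, 16 had no tag in unstimulated cells (88.9%, against 31% of all 11222 enhancers). Enhancers 1 and 10 had 1 tag each there, in replicate 1. A count of 0 over both unstimulated libraries allows up to 3 tags.

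With IFN-γ plus CpG the libraries held 73 and 130 tags at 3 h, 55 and 59 at 9 h, and 41 and 39 at 15 h, or 7.44 ± 3.07, 4.33 ± 0.231 and 3.03 ± 0.0120 RPM (mean ± SD, n = 2 here and below). With IFN-γ alone they held 60 and 38, 36 and 60, and 31 and 31 tags, or 3.73 ± 1.14, 3.48 ± 1.24 and 2.33 ± 0.0176 RPM. With CpG alone they held 11 and 9, 17 and 17, and 16 and 4 tags, or 0.754 ± 0.0950, 1.26 ± 0.003 and 0.771 ± 0.648 RPM. Unstimulated cells stood at 0.0723 ± 0.102 RPM. The libraries of every stimulated group lay above both unstimulated libraries.

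Set against the 2 unstimulated tags, the sum was 101-fold higher with IFN-γ plus CpG at 3 h (95% counting interval 27.6 to 840), 50.9-fold higher with IFN-γ at 3 h (13.7 to 426) and 10.3-fold higher with CpG at 3 h (2.5 to 90.8). At 15 h the ratios were 41.3 (11.1 to 347), 31.8 (8.44 to 268) and 10.6 (2.57 to 93.3). All rest on a single unstimulated library, since replicate 2 held no tag in the window. With 2 libraries a side, the smallest p of an exact permutation test is 0.333, and no test is given for a sum over enhancers chosen with results known.

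In order of mean level, IFN-γ plus CpG at 3 h came first, then IFN-γ plus CpG at 9 h, IFN-γ at 3 h and 9 h, IFN-γ plus CpG at 15 h, IFN-γ at 15 h, and CpG at 9, 15 and 3 h, with unstimulated cells last. Several neighbours in this order overlapped: IFN-γ plus CpG at 9 h with IFN-γ at 3 h, IFN-γ at 3 h with IFN-γ at 9 h, IFN-γ at 9 h with IFN-γ plus CpG at 15 h, and CpG at 15 h with CpG at 3 h. The lead of IFN-γ plus CpG at 3 h moved with its replicate 2, which also had the most enhancer tags of all libraries, 2202 RPM against 1609 in replicate 1. As a share of all enhancer tags the window stood at 0.436% in that replicate and 0.328% in replicate 1, against 0.345% and 0.295% with IFN-γ at 3 h, so that on this scale the groups overlapped.

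**Figure D2:**
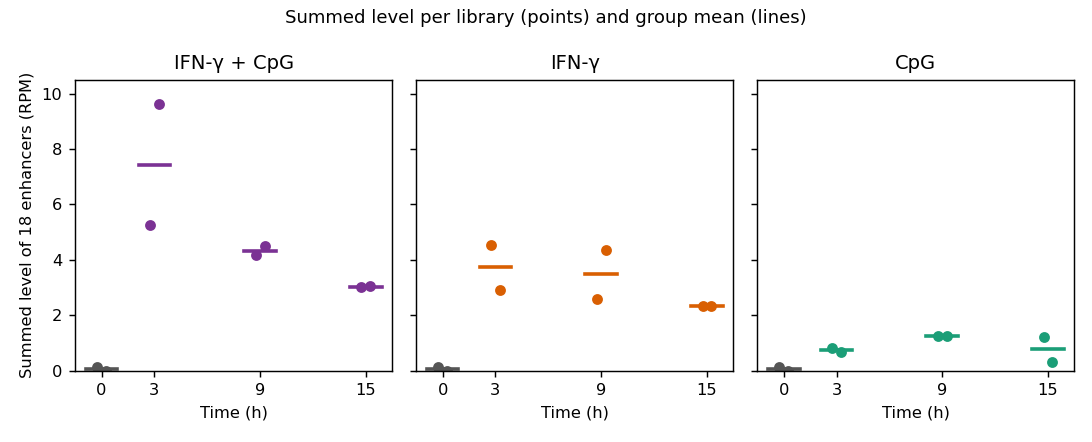
Summed level of the 18 enhancers in RPM against time in hours, for IFN-γ plus CpG, IFN-γ and CpG; points are libraries, short lines the mean of 2, and the 2 unstimulated libraries at 0 h are the same in each panel. IFN-γ plus CpG runs from 7.44 RPM at 3 h to 3.03 at 15 h, IFN-γ from 3.73 to 2.33, and CpG does not exceed 1.27 RPM in any library.

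The filter on low counts was passed by 2792 enhancers, all of which entered the model, and among them were 7 of the 18 (enhancers 2, 4, 5, 6, 12, 16 and 17). None of the 7 had a tag in unstimulated cells, so that they passed through stimulated groups only and could not have been called lower than unstimulated cells. In the comparisons between stimuli and times, a p-value is given only for an enhancer that passes the filter without the libraries of the group in which it is higher. Even these passed through libraries with IFN-γ, since no library with CpG alone reached the minimum count for any of the 7. Counts of calls and p-values against CpG are therefore given as descriptions. For enhancer 17, whose tags with IFN-γ at 3 h were among the values behind the choice of the window, comparisons that use those libraries have no p-value. The 7 held 69.5% of the window's tags, and enhancers 5, 17 and 12 alone held 48.1%. The other 11 had 9 to 43 tags in all and are described by their tags.

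Against unstimulated cells, the model called higher 6, 4 and 3 of the 7 with IFN-γ plus CpG at 3, 9 and 15 h, where 18.4%, 14.1% and 15.6% of all tested enhancers were called higher. With IFN-γ it called 4, 4 and 4 (of all tested, 7.59%, 12.9% and 10.1%), and with CpG 0, 1 and 0 (1.18%, 4.48% and 4.55%). Because the 7 passed the filter through groups in which they were high, nothing is read from these counts. For the counts of 0, enhancers 2, 4, 6 and 16 had no tag on either side and could not be fitted by edgeR. An unadjusted edgeR p under 0.05 was reached with CpG at 3 h by 3 of the 7, enhancers 5, 12 and 17, the only ones fitted. At 15 h it was reached by 1, enhancer 5. DESeq2 and limma also called 0, but DESeq2 tested only 2 of the 7 at 3 h and 3 at 15 h. The count with IFN-γ at 15 h was 0 without unstimulated replicate 1, 1 without replicate 2 and 2 without IFN-γ replicate 2, and that at 3 h was 2 without unstimulated replicate 1 or IFN-γ replicate 1. The call with CpG at 9 h, of enhancer 5, was lost in 9 of the 20 fits that left out a library.

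Enhancer 17 (chr1:173879828-173879978) and enhancer 5 (chr1:173629453-173629744) were the most transcribed of the window. Enhancer 17 had 13 and 29 tags with IFN-γ plus CpG at 3 h, 11 and 8 at 9 h, and 5 and 7 at 15 h. With IFN-γ it had 10 and 13, 8 and 9, and 4 and 4 tags, with CpG 2 and 2, 2 and 0, and 1 and 0, and none in unstimulated cells. Every library with IFN-γ, alone or with CpG, thus exceeded every library with CpG alone. For IFN-γ plus CpG this held in 5.80% of all tested enhancers, and for IFN-γ alone the share was not computed. With its tags at 3 h behind the choice of the window, this is a description. At 3 h it was at least 13.9-fold higher with IFN-γ plus CpG than in unstimulated cells, taking 3 tags for both unstimulated libraries together as the floor, and at least 7.97-fold higher with IFN-γ.

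Enhancer 5 had 14 and 19 tags with IFN-γ plus CpG at 3 h, 16 and 10 at 9 h, and 12 and 3 at 15 h. With IFN-γ it had 6 and 5, 7 and 9, and 6 and 5 tags, and with CpG 4 and 3, 3 and 4, and 3 and 1. It was the only tested enhancer of the window with a tag in every CpG library, and it had none in unstimulated cells. At 3 h it was at least 11.0-fold higher with IFN-γ plus CpG than in unstimulated cells, at least 3.81-fold with IFN-γ and at least 2.40-fold with CpG, against the same floor.

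Enhancer 12 (chr1:173769115-173769459) had 7 and 15 tags with IFN-γ plus CpG at 3 h, 6 and 6 at 9 h, and 5 and 4 at 15 h. With IFN-γ it had 12 and 3, 7 and 12, and 2 and 4, and with CpG 2 and 1, 2 and 2, and 3 and 0. Enhancer 6 (chr1:173704764-173705061) had 8 and 7 tags with IFN-γ plus CpG at 3 h, 1 and 1 at 9 h, and 1 and 4 at 15 h. With IFN-γ it had 6 and 2, 3 and 8, and 4 and 5 tags, and it had no tag in any of the 6 CpG libraries or in unstimulated cells. It was therefore seen only in libraries with IFN-γ, and in all 12 of them. How many of all enhancers show this pattern was not computed.

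**Figure D3:**
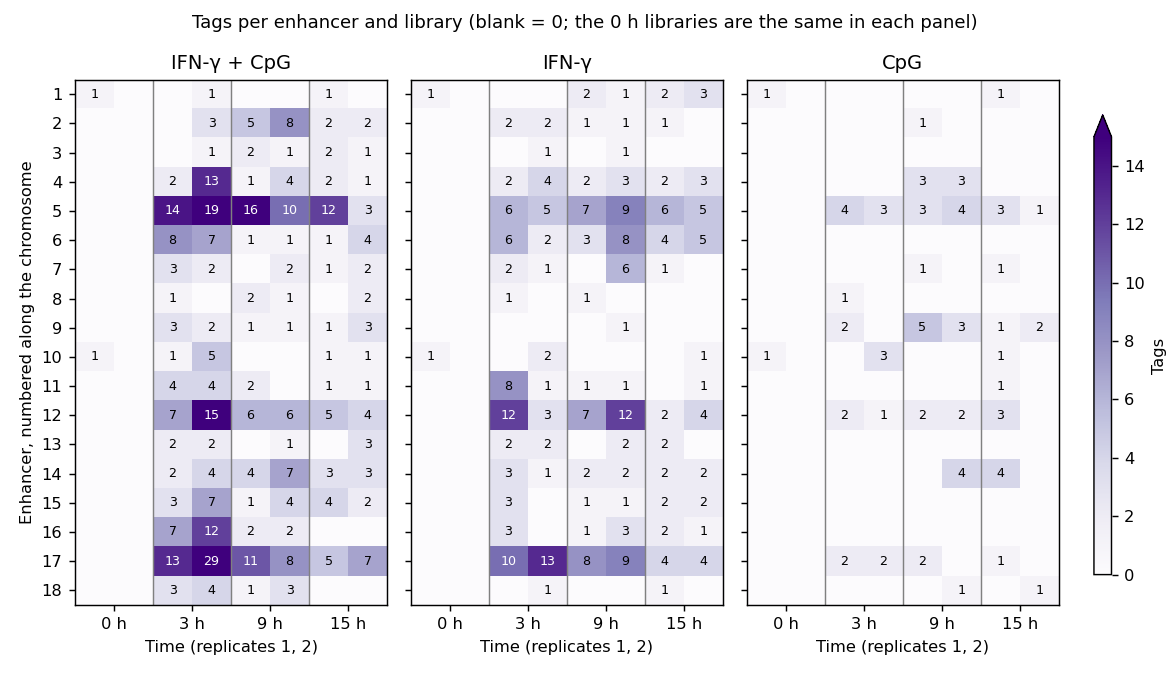
Tags of each of the 18 enhancers (rows, in chromosome order) in each library, with time in hours along each panel for IFN-γ plus CpG, IFN-γ and CpG; blank cells are 0 tags, color saturates at 15 tags, and the 2 unstimulated libraries at 0 h are repeated in each panel. Enhancers 5, 12 and 17 hold 48.1% of the tags, and enhancer 6 has none in the CpG panel.

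Comparing IFN-γ plus CpG with CpG over the 3 times shows what IFN-γ added to CpG with time in culture held equal. Of the 7 tested enhancers 6 were called higher and none lower, where 17.9% of all tested enhancers were called higher (edgeR quasi-likelihood test, Benjamini-Hochberg adjusted over 2792), and nothing is read from this count. Enhancer 17 rose by 3.14 ± 0.51 on the log2 scale (SE; edgeR adjusted p = 5.72e-08), enhancer 5 by 1.88 ± 0.39 (4.18e-05) and enhancer 12 by 1.85 ± 0.51 (0.00232). All 6 libraries of IFN-γ plus CpG lay above all 6 of CpG for enhancers 17, 12 and 6, as they did for 5.80% of all tested enhancers. Enhancer 6, with 22 tags against 0, was at least 7.25-fold higher (edgeR adjusted p = 0.00194), against a floor of 3 tags over the 6 CpG libraries. All of these enhancers passed the filter through libraries with IFN-γ, so that their p-values here are descriptions and not independent tests.

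Enhancers 2, 4 and 16 had few tags and passed the filter only with the help of the libraries of IFN-γ plus CpG, so that no p-value is given for them here. Enhancer 2 (chr1:173316952-173317404) had 20 tags over the 6 libraries of IFN-γ plus CpG, 13 of them at 9 h, and 1 tag over the 6 of CpG, a ratio of 19.8 (95% counting interval 3.16 to 819). Enhancer 4 (chr1:173459673-173459987) had 23 tags against 6, a ratio of 3.79 (1.5 to 11.4), and 13 of the 23 came from IFN-γ plus CpG at 3 h replicate 2. Without that library the calls of enhancers 2 and 4 were lost, leaving 4 of 7, and DESeq2 did not call enhancer 4 and gave no adjusted p for enhancer 2. The call of enhancer 4 was also lost without IFN-γ plus CpG at 9 h replicate 2 or 15 h replicate 1. Enhancer 16 (chr1:173876996-173877223) had 23 tags against 0, at least 7.57-fold higher, but could not be fitted with a coefficient per group because both stimuli were without a tag at 15 h. A fit with additive terms for stimulus and time was added after seeing this.

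IFN-γ against CpG, which shares the CpG libraries with the comparison above, gave 6 calls higher and none lower among the 7, where 22.0% of all tested enhancers were called higher, and nothing is read from this count either. Enhancer 12 differed by 1.92 ± 0.53 on the log2 scale (SE; edgeR adjusted p = 0.00146) and enhancer 5 by 1.21 ± 0.44 (0.0186). Enhancer 16, with 10 tags against 0, was called too (edgeR adjusted p = 0.00709), and enhancer 2, with 7 against 1, was not (0.108). Enhancers 16 and 2 passed the filter only through libraries of IFN-γ plus CpG, and enhancers 12 and 5 only through libraries with IFN-γ. These p-values are therefore descriptions and not independent tests. As descriptions, enhancer 6 had 28 tags against 0, at least 9.19-fold higher with IFN-γ, and enhancer 4 had 16 against 6. Enhancer 17 had 48 against 7, a ratio of 6.75 that includes its tags at 3 h behind the choice of the window. The call of enhancer 5 was lost with whole-library totals or without CpG at 15 h replicate 2, that of enhancer 16 without IFN-γ at 3 h replicate 1 or with DESeq2. The call of enhancer 12 remained wherever it was tested, in both comparisons with CpG; with the stricter filter it was not tested.

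IFN-γ plus CpG against IFN-γ shows what CpG added to IFN-γ. Over the 3 times, edgeR called none of the 7, where 21.4% of all tested enhancers were called in either direction. An unadjusted p under 0.05 was reached by 1 of the 7. DESeq2 called 0 of the 5 it tested, and limma called 2 higher, enhancers 2 and 5. Enhancer 5, with 74 tags against 38, differed by 0.67 ± 0.34 on the log2 scale (SE; edgeR adjusted p = 0.147), and it was called higher without IFN-γ plus CpG at 15 h replicate 2. Enhancer 12, with 43 tags against 40, differed by -0.08 ± 0.41 (edgeR adjusted p = 0.947). The log2 value averages the changes at the 3 times after scaling on enhancer tags, whereas the tags are summed, so that their directions can differ. As descriptions, enhancer 17 had 73 tags against 48 and enhancer 6 had 22 against 28. These p-values do not show that the levels were alike.

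For the sum of all 18, IFN-γ plus CpG stood at 7.41 RPM against 3.74 with IFN-γ at 3 h (203 and 98 tags), 4.33 against 3.48 at 9 h (114 and 96 tags) and 3.03 against 2.33 at 15 h (80 and 62 tags), taking both libraries of a group together. The libraries did not overlap at 3 h or 15 h and overlapped at 9 h. As a share of all enhancer tags the libraries overlapped at 3 h. At 9 h they did not, with 0.319% ± 0.0282 with IFN-γ plus CpG against 0.223% ± 0.0283 with IFN-γ. At 15 h the direction turned, with 0.165% ± 0.0276 against 0.181% ± 0.0100, and the libraries overlapped. Over the 3 times the ratio was 1.56 (95% counting interval 1.33 to 1.83). The ratio of IFN-γ plus CpG to CpG was 5.30 (4.13 to 6.89) and that of IFN-γ to CpG 3.4 (2.62 to 4.47).

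The 11 enhancers that were not tested together had 119 tags with IFN-γ plus CpG, 69 with IFN-γ, 32 with CpG and 2 in unstimulated cells. Of these 11, 10 had a higher level with IFN-γ plus CpG than with CpG and 8 a higher level with IFN-γ than with CpG. Some of these differences are 2 tags against 1, and the share among all untested enhancers was not computed. Nothing is read from these counts. Enhancers 3, 13 and 15 had 7, 8 and 21 tags with IFN-γ plus CpG and 2, 8 and 9 with IFN-γ, and no tag in any CpG library. With enhancers 6 and 16 these were the 5 of the 18 without a CpG tag. The share of all enhancers without a CpG tag was not computed, so that nothing is read from this count. Enhancer 15 (chr1:173875904-173876100) had a tag in all 6 libraries of IFN-γ plus CpG, 1 to 7 each, and in 5 of 6 with IFN-γ. Enhancer 14 (chr1:173868190-173868767) had 2 to 7 tags in each library of IFN-γ plus CpG and 1 to 3 in each of IFN-γ, whereas its 8 CpG tags came from 2 libraries.

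Enhancer 9 (chr1:173735814-173736358) had more tags with CpG than with either treatment holding IFN-γ; it is outside the rule for named enhancers and was singled out after its values were seen. It had 11 tags with IFN-γ plus CpG, spread over all 6 libraries with 1 to 3 each, 1 tag with IFN-γ and 13 with CpG, in 5 of 6 libraries. In unstimulated cells it had none. IFN-γ stood 13.2-fold lower than CpG (95% counting interval 1.98 to 561) and IFN-γ plus CpG 11.0-fold higher than IFN-γ (1.61 to 475). IFN-γ plus CpG stood only 1.2-fold lower than CpG (0.495 to 2.95), so that these 2 cannot be told apart by their tags. Enhancer 9 had too few tags for the filter, and with no filter edgeR called no enhancer of the window lower with IFN-γ than with CpG. Enhancer 10, with its midpoint 0.69 kb away, had 8, 3 and 4 tags with IFN-γ plus CpG, IFN-γ and CpG. Enhancer 1, the lowest by position, had 2, 8 and 1.

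**Figure D4:**
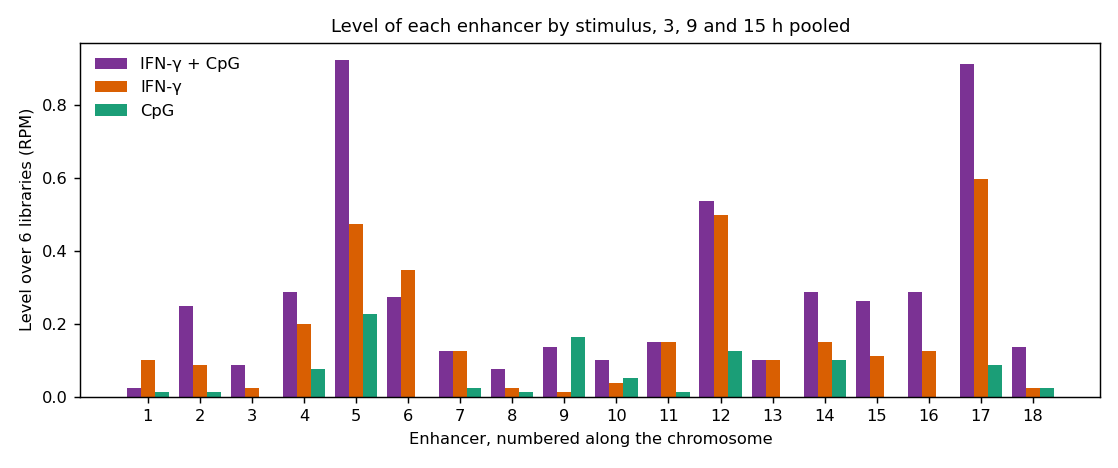
Level of each enhancer (numbered in chromosome order) in RPM over the 6 libraries of IFN-γ plus CpG, IFN-γ and CpG, with 3, 9 and 15 h pooled; bars are tags over library totals, with no error shown. Enhancers 5 and 17 are highest, and enhancer 9 is the only one with a CpG bar above that of IFN-γ plus CpG.

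Enhancers of the window varied together to different degrees. Across the 18 stimulated libraries, which share depth and time courses, the log2 level of enhancer 17 correlated with the sum of the other 17 at r = 0.87, that of enhancer 12 at r = 0.86 and that of enhancer 5 at r = 0.80. Enhancer 9 stood at r = -0.20 and enhancer 1 at r = 0.11. Low counts limit r for the sparse enhancers, and these values are descriptions.

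The sum was lower at 15 h than at 3 h with both treatments holding IFN-γ, and their libraries of the 2 times did not overlap. With IFN-γ plus CpG the sum was 2.45-fold lower at 15 h than at 3 h (80 against 203 tags; 95% counting interval 1.88 to 3.21), with IFN-γ 1.60-fold lower (62 against 98; 1.15 to 2.24), and with CpG there were 20 tags at 15 h and 20 at 3 h. Of the 7 tested enhancers, edgeR called 2 lower at 15 h with IFN-γ plus CpG, where 4.80% of all tested enhancers were called lower. Enhancer 17 had 5 and 7 tags at 15 h against 13 and 29 at 3 h, which is -1.78 ± 0.52 on the log2 scale (SE; edgeR adjusted p = 0.0144). Enhancer 16 had none at 15 h against 7 and 12 at 3 h, at least 6.10-fold lower; it passed the filter only through those 2 libraries of 3 h, so that its call is a description. Both calls were lost without IFN-γ plus CpG at 3 h replicate 2 and without either library of 15 h, which leaves 1 library on a side, assumed to vary like the others, and DESeq2 did not call enhancer 17 and gave no adjusted p for enhancer 16.

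With IFN-γ alone edgeR called none of the 7 lower at 15 h than at 3 h (0.645% of all tested enhancers; unadjusted p under 0.05 in 1 of 7), and DESeq2 and limma called 0. The 1 with an unadjusted edgeR p under 0.05 was enhancer 17, whose tags at 3 h were among the values behind the choice of the window. As a description, enhancer 17 had 4 and 4 tags against 10 and 13, 2.91-fold lower. Enhancer 6 had 4 and 5 tags against 6 and 2. With CpG alone edgeR also called none (0.358% of all tested), as did DESeq2 and limma. Enhancers 2, 4, 6 and 16 had no CpG tag at either time and could not be fitted by edgeR. Enhancers 5, 12 and 17, the only ones with an edgeR p-value, did not reach an unadjusted p under 0.05. Whether the change with time differed between the stimuli was not tested.

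Outside the window, the enhancers whose 10 group means of log2 RPM were most like those of the window's sum lay on other chromosomes. Among 687 enhancers with a mean of at least 5 tags, they were chr19:29343572-29344121 (Pearson r = 0.962), chr16:49677958-49678503 (r = 0.947) and chr17:36334414-36334921 (r = 0.938). They had 157, 98 and 138 tags over the 6 libraries of IFN-γ plus CpG, 86, 59 and 125 over those of IFN-γ, 20, 19 and 23 over those of CpG, and 2, 3 and 3 in unstimulated cells. They show the same order of stimuli as the window, by which they were chosen.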

How the data were processed

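The 2 deposited tables hold 11222 enhancers in 20 libraries: raw tag counts, and RPM values that the authors scaled to whole-library totals (dividing counts by RPM gave 1 total per library). Build mm39 is named in the submitters' processing notes, beside HISAT2 2.1.0, BWA 0.7.10, Trimmomatic 0.38 and FastQC 0.11.5; the enhancer caller is not given in the sources used here. Groups and replicate numbers came from sample titles. The window's enhancers, the lists and the comparisons were chosen with earlier results of these data known. Coordinates are printed as deposited; the first position may be numbered 0 or 1.

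The edgeR 4.0.16 quasi-likelihood test (R 4.3.3; robust, TMM factors on enhancer tags, 1 coefficient per group) was run on the 2792 enhancers passing filterByExpr (minimum count 5, minimum total 15). A call is a Benjamini-Hochberg adjusted p under 0.05, and an SE is the log2 change over the square root of F. Comparisons over the 3 times average the coefficients of 3, 9 and 15 h. The test was also run on simulated data, but the outcome is not given here and nothing is read from it. No label says that replicates came from separate animals, and p-values measure the spread between these libraries. By rule, the tested enhancers of the window were described by name and others by counts; further ones named were chosen after their values were seen. As alternatives, the fit was repeated with limma 3.58.1 on log2 of RPM plus 0.5, the replicate number as a block, no or a stricter filter (10 and 30), library totals, DESeq2 1.42.0 or RLE factors, and without each library in turn. Bounds use a floor of 3 tags over a group, and intervals are exact at 95%. Enhancers near other DNA sensing genes were not analysed here, for lack of an mm39 annotation. A second promoter motif that was searched is not reported here.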

Additional observations from a re-analysis of the deposited data

Results flagged for a closer look

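Enhancer 17 differed between time points under IFN-γ plus CpG, with 5 and 7 tags at 15 h against 13 and 29 at 3 h (edgeR adjusted p = 0.0144). It passed the filter on low counts without the libraries of 3 h as well. In the same libraries all enhancers together stood at 1636 and 2085 RPM at 15 h against 1609 and 2202 RPM at 3 h; the part of these totals in the result was not tested.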

How the results depend on the processing

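The stricter filter left 2 of the 7 enhancers tested, 5 and 17, which is why it gave counts of 2 for IFN-γ plus CpG at 3 h and 9 h and for IFN-γ at 3, 9 and 15 h against unstimulated cells, and for both comparisons with CpG over the 3 times; it gave 1 for CpG at 3 h against unstimulated cells and 1 for IFN-γ plus CpG at 15 h against 3 h. DESeq2 tested only 3 of the 7 in each of the next comparisons, so that its counts cannot be set against those out of 7. Its count was 0 for IFN-γ plus CpG at 15 h against 3 h. Against unstimulated cells its counts were 3 for IFN-γ plus CpG at 3 h, 2 for IFN-γ at 15 h and 0 for CpG at 9 h. With no filter they were 1 for IFN-γ plus CpG at 15 h against 3 h and 1 for the 15 h libraries of IFN-γ set against unstimulated ones. For the last comparison limma gave 2, and it also gave 2 for IFN-γ plus CpG against IFN-γ. The call with CpG at 9 h was lost (0) with no filter, limma, whole-library totals and the replicate block. The block, fitted as a covariate, changed no other count. Over 45 pairs of groups the deviations of same-numbered libraries correlated at -0.0529 to 0.0469. Replicates differed little beyond counting error, with a chi-square per degree of freedom of 1.13 to 1.22. These correlations therefore cannot tell whether replicate numbers pair the libraries. Other causes were not tested. The additive fit, chosen after seeing the data, gave 6, 0 and 5 calls for IFN-γ plus CpG against CpG, IFN-γ plus CpG against IFN-γ, and IFN-γ against CpG.

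Leaving out each library, the counts against unstimulated cells at 3, 9 and 15 h ran from 5 to 6, 3 to 5 and 2 to 3 with IFN-γ plus CpG, from 2 to 5, 3 to 4 and 0 to 4 with IFN-γ, and were 0, 0 to 1 and 0 with CpG. They ran from 4 to 6 for IFN-γ plus CpG against CpG, 0 to 1 for IFN-γ plus CpG against IFN-γ and 5 to 6 for IFN-γ against CpG. At 15 h against 3 h they ran from 0 to 2 with IFN-γ plus CpG and were 0 with IFN-γ and with CpG. The log2 ratio of the sum to unstimulated cells ran, at 3, 9 and 15 h, from 5.68 to 7.05, 4.90 to 5.96 and 4.39 to 5.39 with IFN-γ plus CpG, from 4.69 to 5.97, 4.59 to 5.91 and 4.01 to 5.02 with IFN-γ, and from 2.38 to 3.51, 3.13 to 4.13 and 2.11 to 4.09 with CpG. Relative to enhancer tags it was 6.13 at 9 h and 5.19 at 15 h with IFN-γ plus CpG, 6.14 at 3 h and 5.32 at 15 h with IFN-γ, and 3.68 at 3 h and 4.12 at 9 h with CpG. Without enhancer 5 it was 5.53 at 9 h and 5.10 at 15 h with IFN-γ plus CpG, 4.73 at 15 h with IFN-γ, and 2.76 at 3 h and 3.80 at 9 h with CpG. Sums over the tested enhancers only, or without unstimulated replicate 1, have no ratio, since unstimulated cells then held no tag. At 17.8% biological variation and 0 to 29 tags per enhancer and library, depth limits what small differences can be seen.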
